A study of Mus musculus with 32 samples.

Results

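The 10 collagen chain genes described here were Col1a1, Col1a2, Col3a1, Col5a1 and Col5a2 of the fibrillar collagens, Col4a1 and Col4a2 of the basement membrane, and Col6a1, Col6a2 and Col6a3 of type VI. They were chosen by name, with earlier results of these data known, and are 10 of 24454 gene IDs in the deposited count table. All 10 passed the filter on low counts.

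RNA was measured in 32 laser-captured regions of female mice that carried MMTV-PyMT, R26-CBW and K8-CreERT2, from poly(A) RNA of 7 µm sections amplified with SmartSeq2 chemistry. MMTV-PyMT places a viral oncogene under a mammary promoter and drives tumours through graded stages, and R26-CBW is a multicolour reporter. K8-CreERT2 is a recombinase active in keratin 8 cells once tamoxifen is given. All groups, the normal glands included, had these alleles and received 5 mg tamoxifen at 5 weeks of age. Normal gland gave 3 libraries, hyperplasia 5, adenoma 8, carcinoma 9 and metastasis in the lung 7. Among the normal libraries, the labels place number 18 in the tumour core and give 28 and 30 as pools from several places. For the reporter colour, the labels give a single colour for normal 18 and for each lesion region, and a pool for normal 28 and 30. Pooling thus differs between normal gland and the lesions, and the fits did not use the colour. Hyperplasia had 3 regions in the tumour core, 1 at its border and 1 outside it, adenoma had 3, 3 and 2, and carcinoma had 6 in the core and 3 at the border. Of the metastases, 4 lay at the lung border and 3 lay centrally. The normal group is gland of a tumour-bearing transgenic animal and not of an animal free of the oncogene. The series states 3 animals and the labels tie no region to an animal. Regions thus share animals, which the fits leave out. P-values over regions may therefore be too small, or too large where the groups compared share animals.

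A collagen molecule is a triple helix of chains. Type I, III and V chains assemble into the banded fibrils of connective tissue, in which type I is the bulk, type III is abundant in soft tissue and type V starts fibrils and limits their width. Type IV forms the sheet-like network of basement membranes, which in the mammary gland surrounds the epithelium and the vessels, and type VI forms beaded filaments that lie between the fibrils and the cells. In the mammary gland, fibroblasts are the main source of the fibrillar and type VI chains, whereas epithelial, endothelial and mural cells also make type IV.

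Libraries held 2688611 to 19585351 counts (median 8753096) and 10258 to 17667 detected genes, and 1 gene ID, the same in each library, took 5.20 to 78.9% of the counts. Hyperplasia 22, adenoma 51 and metastasis 42 had fewer than 11000 detected genes. Luminal epithelial markers were present in every library, at a summed level of 1279 to 4627 CPM, with the normal libraries at 1279 to 1911. CPM is the count scaled to a common library size with TMM factors. Markers of lung epithelium summed to 409 to 4590 CPM in the metastasis libraries and to at most 62.2 CPM in any other library. In regions of mixed cells, fewer cells of a type and less RNA per cell cannot be told apart. Only the metastases came from the lung, so in comparisons with them stage and organ cannot be told apart.

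The promoter windows of 4 members are printed, those of the type IV pair because the genes share a start region and those of Col3a1 and Col1a2 as fibrillar chains described beside them. Col4a1 and Col4a2 lie head to head on chromosome 8 (GRCm38.p6), Col4a1 at chr8:11198423-11312889 on the minus strand and Col4a2 at chr8:11312805-11449287 on the plus strand. The annotated genes overlap by 85 bases and the start sites of the printed windows lie 21 bases apart. Each RefSeq window holds 250 bases before and 50 after a start site, 5′ to 3′ on the gene's strand, and capitals mark the TATA motif (TATAAA), the CCAAT motif and the GC box (GGGCGG) on either strand. The windows were chr8:11312777-11313076 (minus) for Col4a1, chr8:11312555-11312854 (plus) for Col4a2, chr1:45311288-45311587 (plus) for Col3a1 and chr6:4505368-4505667 (plus) for Col1a2.
Col4a1: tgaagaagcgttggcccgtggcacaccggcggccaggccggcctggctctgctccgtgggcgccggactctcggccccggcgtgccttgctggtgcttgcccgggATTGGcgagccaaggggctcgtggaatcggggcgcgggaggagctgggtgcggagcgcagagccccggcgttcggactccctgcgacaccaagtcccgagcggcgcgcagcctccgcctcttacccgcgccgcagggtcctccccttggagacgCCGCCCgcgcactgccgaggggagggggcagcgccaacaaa
Col4a2: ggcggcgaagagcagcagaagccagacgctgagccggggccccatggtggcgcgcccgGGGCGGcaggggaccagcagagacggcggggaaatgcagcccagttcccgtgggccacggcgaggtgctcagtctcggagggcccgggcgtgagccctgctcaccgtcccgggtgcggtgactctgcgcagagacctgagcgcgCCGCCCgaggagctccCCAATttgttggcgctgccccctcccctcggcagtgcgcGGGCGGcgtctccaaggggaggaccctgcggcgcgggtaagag
Col3a1: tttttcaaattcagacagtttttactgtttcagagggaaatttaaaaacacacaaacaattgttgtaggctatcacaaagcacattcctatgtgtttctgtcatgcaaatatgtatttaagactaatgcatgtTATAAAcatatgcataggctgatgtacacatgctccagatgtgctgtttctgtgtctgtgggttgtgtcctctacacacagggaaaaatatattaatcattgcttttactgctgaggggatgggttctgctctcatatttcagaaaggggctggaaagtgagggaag
Col1a2: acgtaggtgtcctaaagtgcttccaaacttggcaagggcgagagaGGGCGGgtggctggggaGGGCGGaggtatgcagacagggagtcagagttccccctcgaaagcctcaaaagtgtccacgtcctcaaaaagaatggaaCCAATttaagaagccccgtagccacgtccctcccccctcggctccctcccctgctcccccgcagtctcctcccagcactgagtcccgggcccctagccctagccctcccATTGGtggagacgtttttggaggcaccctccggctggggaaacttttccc
The windows of the type IV pair share 78 bases, which read as reverse complements of each other, and are 74.0% (Col4a1) and 73.7% (Col4a2) G or C. The windows of the fibrillar chains Col3a1, Col1a2 and Col5a1 are 37.7, 61.0 and 75.0% G or C, and that of Col5a1 lies above both type IV windows. These compare with a median of 52.7% over 32851 windows of the same length. Col3a1 has TATAAA 117 bases before its start site, and no such match lies in the other 3 windows. The CCAAT motif occurs in the Col4a1, Col4a2 and Col1a2 windows, and so does the GC box. The GC box of the Col4a1 window lies in the shared bases and is the same site as the last GC box of the Col4a2 window. Over all windows, 13.6% hold the TATA motif, 37.4% hold the CCAAT motif and 35.7% hold the GC box. Windows were found for 8 of 10 members, not for Col1a1 and Col5a2.

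Both type I chains had their highest stage mean in normal gland. Col1a1, the major chain of type I, had 816, 163 and 477 CPM in normal 18, 28 and 30. In hyperplasia it had 29.2, 34.1, 54.5, 67.2 and 251 CPM. In adenoma Col1a1 spanned 1.77 to 165 CPM with a median of 19.2, carcinoma spanned 4.57 to 667 CPM with a median of 66.96, and metastasis spanned 1.86 to 50.01 CPM with a median of 18.3. All 7 metastases lay below all 3 normal libraries, whereas hyperplasia, adenoma and carcinoma overlapped with normal gland through their highest libraries. Col1a2, the partner chain, had 1165, 169 and 612 CPM in normal 18, 28 and 30. In hyperplasia Col1a2 had 7.33, 31.6, 65.4, 305 and 316 CPM. In adenoma it spanned 0 to 464 CPM (median 30.7), in carcinoma 0.669 to 1123 CPM (median 78.6) and in metastasis 0.223 to 133 CPM (median 34.5). For this chain too the metastases lay below all normal libraries and the other stages overlapped with normal gland.

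Col3a1, the chain of type III, was likewise lower in every metastasis than in any normal library. It had 705, 110 and 369 CPM in normal 18, 28 and 30. In hyperplasia Col3a1 had 16.6, 35.4, 54.8, 63.3 and 118 CPM. It spanned 6.79 to 149 CPM in adenoma (median 20.3) and 1.34 to 362 CPM in carcinoma (median 28.2). Metastases held 3.20, 11.3, 16.1, 19.2, 20.8, 21.1 and 21.2 CPM of Col3a1, all below normal gland. Col5a1, which starts fibrils together with type I, had 31.3, 15.1 and 65.0 CPM in normal 18, 28 and 30, and 0 to 5.37 CPM in hyperplasia and 0 to 5.75 CPM in adenoma, without overlap with normal gland. It reached 48.1 CPM in carcinoma and 47.3 CPM in metastasis, each in 1 library. Col5a2, its partner, had 1.26 to 5.87 CPM in hyperplasia, against 141, 20.2 and 56.4 CPM in normal 18, 28 and 30, again without overlap. In adenoma, carcinoma and metastasis Col5a2 spanned 1.44 to 23.7, 0.111 to 103 and 1.26 to 21.8 CPM.

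Type VI chains differed among themselves. Col6a2, which pairs with Col6a1 in the type VI molecule, had 143, 33.9 and 101 CPM in normal 18, 28 and 30. In hyperplasia Col6a2 had 2.50, 4.19, 6.83, 12.3 and 27.3 CPM, none of them within the normal range. It spanned 0 to 49.997 CPM in adenoma and 0 to 85.4 CPM in carcinoma, and in metastasis 0 to 2.56 CPM with a median of 0.741. The metastases thus held Col6a2 at or near 0 in every library. Col6a1 had 0 to 26.9 CPM in metastasis, against 51.1 to 104 CPM in normal gland, with no count in 3 of 7 metastases and no overlap. In hyperplasia it spanned 0.838 to 403 CPM, the top value being hyperplasia 22. Col6a3, the long chain that completes the molecule, had 0 to 52.8 CPM in metastasis, against 45.2 to 130 CPM in normal gland, and overlapped with normal gland at every stage.

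The type IV chains overlapped with normal gland at every stage. Col4a1 had 79.6, 36.3 and 81.5 CPM in normal 18, 28 and 30. In hyperplasia Col4a1 had 19.7, 20.2, 41.1, 77.1 and 157 CPM. Its medians were 39.7 CPM in adenoma, 43.96 in carcinoma and 31.5 in metastasis, with ranges of 0 to 122, 12.7 to 83.1 and 7.50 to 99.2 CPM. Col4a2 had 116, 79.1 and 54.2 CPM in normal 18, 28 and 30. In hyperplasia it had 17.0, 20.1, 82.3, 115 and 294 CPM, and its medians were 28.4 CPM in adenoma, 23.8 in carcinoma and 80.7 in metastasis. Its ranges were 0.566 to 143, 5.10 to 68.6 and 11.9 to 166 CPM in these stages. The metastases thus spanned the normal values of both chains, unlike those of Col1a1, Col1a2 and Col3a1. The sources used here do not give the strand setting of the counting, so reads from the overlap of the type IV genes cannot be assigned with certainty.

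**Figure D1:**
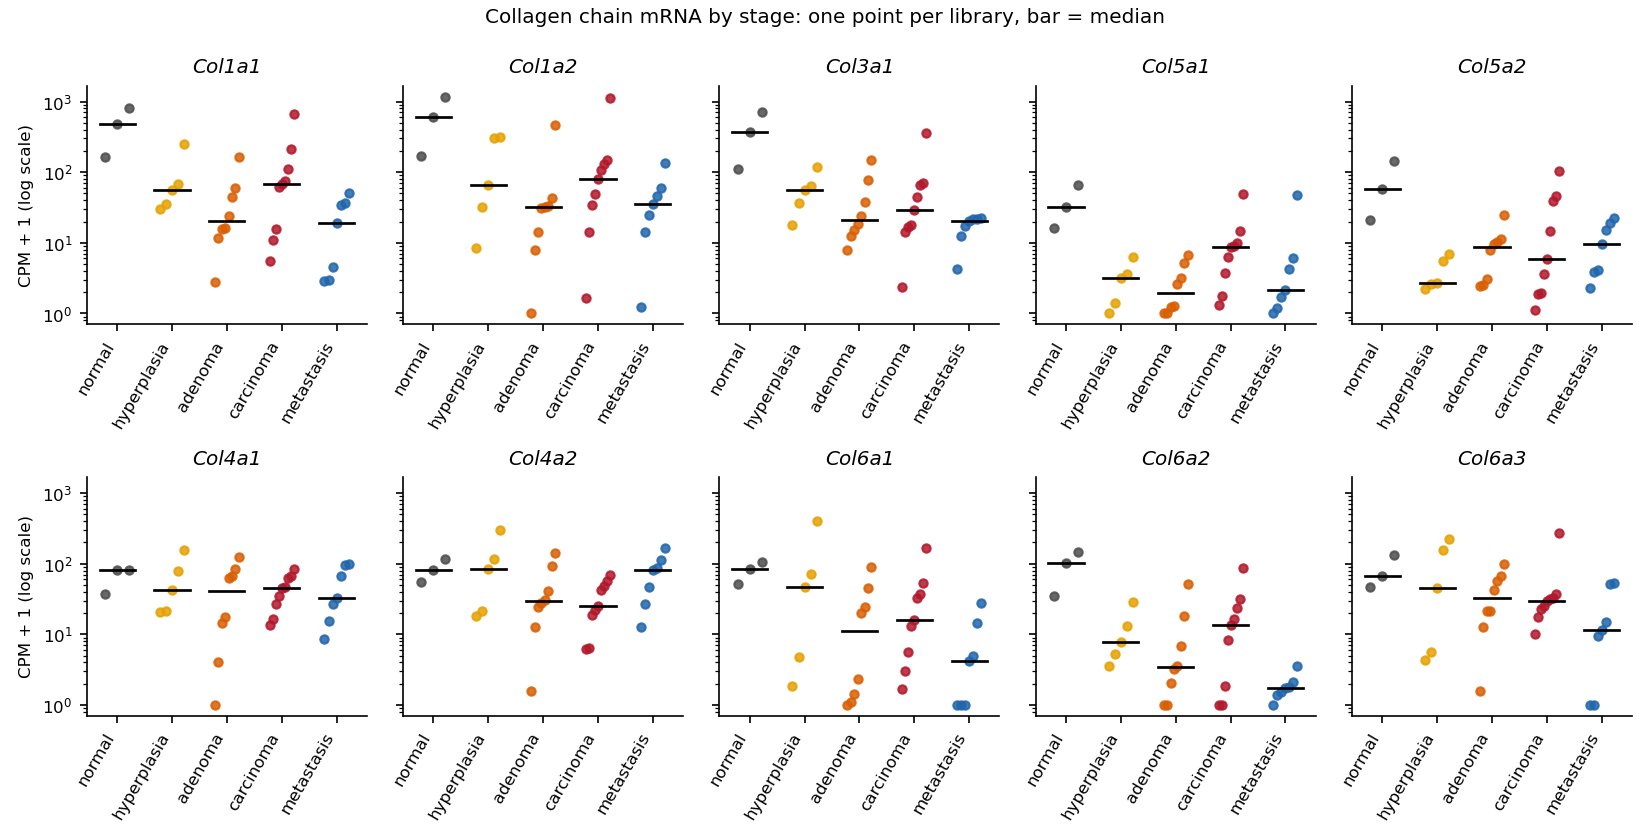
Level of each of the 10 collagen chains (CPM + 1, log axis) in every library, by stage from normal gland to metastasis, with the median of each stage as a bar. Col1a1, Col1a2, Col3a1, Col6a1 and Col6a2 show 7 metastases below all 3 normal libraries, beside 2.1% of all genes. Col5a1 and Col5a2 overlap with normal gland in metastasis, and Col4a1, Col4a2 and Col6a3 do so at every stage.

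In the fit over all 19907 genes, Col3a1 was the 1 member that passed a comparison of a later stage with normal gland. It fell in metastasis, averaging 16.1 ± 6.73 CPM there (SD, n = 7), against 394 ± 298 CPM in the 3 normal libraries, a log2 fold change of -4.61 (SE 0.91, edgeR quasi-likelihood test, Benjamini-Hochberg adjusted p = 0.0391). In metastasis, 0.0251% of all genes passed, and 5 members had no overlap with normal gland, all lower, against 2.1% of all genes. Those members were Col1a1, Col1a2, Col3a1, Col6a1 and Col6a2. The Col3a1 call held without normal 28 and was lost on leaving out any of the other 9 libraries of the 2 groups, where the adjusted p reached 0.209 without normal 18. Over the other settings it ranged from 2.17e-05 with DESeq2 to 0.0699 without the 3 libraries of fewest detected genes. Col6a2 averaged 0.875 ± 0.822 CPM in metastasis, against 92.7 ± 55.1 CPM for normal gland, with log2 -6.69 (SE 1.60, adjusted p = 0.213). Col1a1 had log2 -4.56 (SE 1.03, adjusted p = 0.173), Col1a2 had -3.88 (SE 1.24, adjusted p = 0.245) and Col6a1 had -3.55 (SE 1.49, adjusted p = 0.414). The type IV chains had log2 -0.44 (SE 0.94) for Col4a1 and -0.15 (SE 0.91) for Col4a2, with 95% intervals of -2.29 to 1.41 and -1.93 to 1.63. DESeq2 called Col1a1, Col3a1 and Col6a2 lower in metastasis and 264 genes in all. With only the libraries of both groups, edgeR called the same 3 members, with adjusted p of 0.0440 for Col1a1, 0.00177 for Col3a1 and 0.0173 for Col6a2, among 13 genes. The 15 fibroblast markers summed to 36.9 to 156 CPM in metastasis, against 507 to 1290 CPM in normal gland, and their part in these differences was not tested. Stage and organ cannot be told apart in this comparison.

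No member passed in hyperplasia, adenoma or carcinoma against normal gland with edgeR (0%, 0.00502% and 0.00502% of all genes passed, with 2472, 2599 and 1626 genes at unadjusted p under 0.05 and DESeq2 calling 483, 412 and 177 genes). In hyperplasia, Col5a1, Col5a2 and Col6a2 lay below normal gland without overlap, against 3.77% of all genes in that direction. Hyperplasia averaged 2.999 ± 2.08 CPM of Col5a2, against 72.5 ± 62.0 CPM for normal gland (log2 -4.59, SE 1.42, adjusted p = 0.282), and DESeq2 called it with adjusted p = 0.00439. In adenoma, Col5a1 alone of the members did not overlap with normal gland (2.08% of all genes, lower), at log2 -4.37 (SE 1.60, adjusted p = 0.178). Col1a1 and Col3a1 had log2 -3.54 and -3.23 there, each with adjusted p = 0.0880, and DESeq2 called both. In carcinoma every member overlapped with normal gland (1.25% of all genes were lower without overlap) and the log2 values ran from -2.53 for Col3a1 to -0.61 for Col4a1. The 3 normal libraries and their shared animals stand behind all 4 comparisons, which are not independent.

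As a group, 7 of 10 members lay below normal gland in hyperplasia and 10 of 10 did so at each later stage, beside 49.4, 47.7, 47.2 and 47.2% of all genes. The members' median log2 was -2.32, -3.12, -1.72 and -3.21 from hyperplasia to metastasis, beside medians of 0, 0.07, 0.10 and 0.10 over all genes. The fibrillar chains had median log2 -2.77, -3.23, -1.81 and -3.88, the type VI chains 0.07, -1.85, -1.16 and -3.55, and the type IV pair 0.14, -0.69, -0.995 and -0.29. Scaling by DESeq2's method moved the median of all genes to -0.35, -0.30, -0.31 and -0.25 and that of the members to -2.63, -3.46, -2.14 and -3.41. Without normal 18, the members' medians were -1.64, -2.28, -1.05 and -2.71. Without carcinoma 55, the members' median in carcinoma was -2.55, and Col3a1, Col1a2 and Col1a1 had log2 -3.64, -3.21 and -2.80. Without hyperplasia 22, one of the 3 libraries of fewest detected genes, all 10 members were lower in hyperplasia, with a median of -2.63, and Col6a1 and Col4a2 had log2 -1.55 and -0.66. Of the 10 members, 9 were lower in hyperplasia with DESeq2's scaling and 6 without normal 18, and 9 were lower in metastasis without normal 18. These counts have no test, and the members were chosen with earlier results of these data known.

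**Figure D2:**
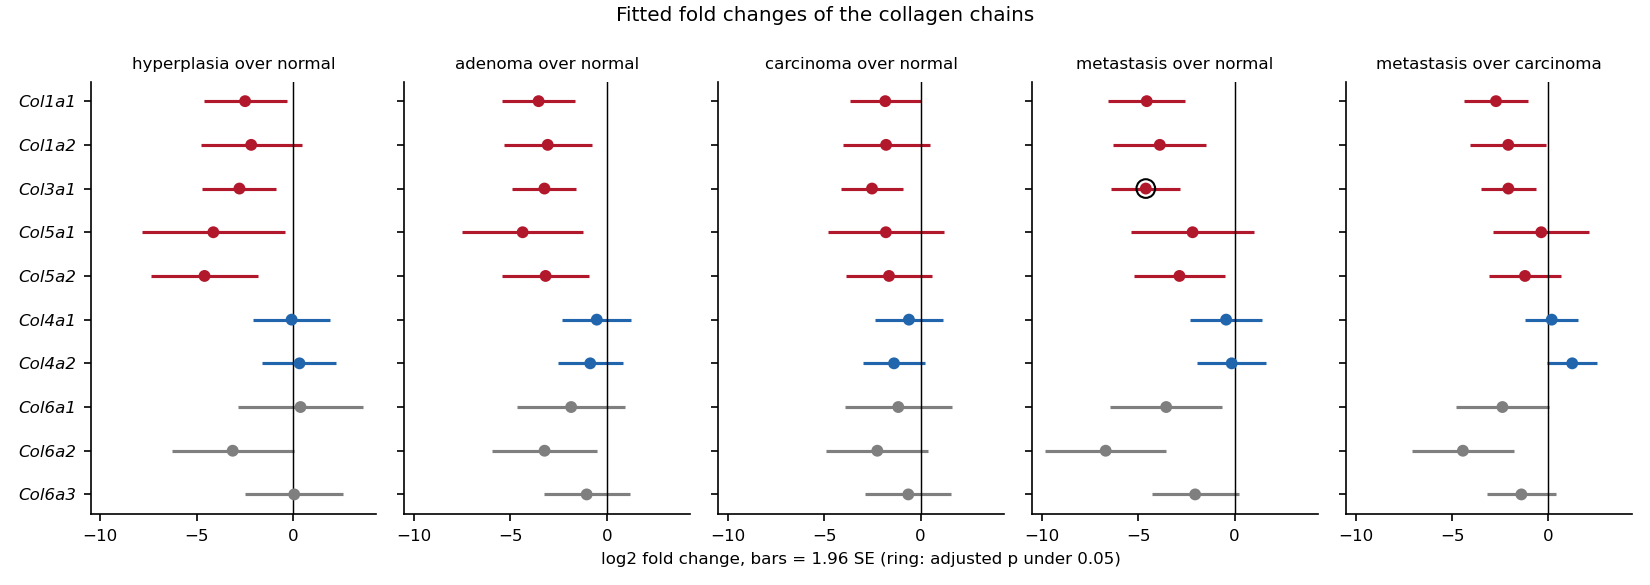
Fitted log2 fold change of each chain with its 95% interval, for hyperplasia, adenoma, carcinoma and metastasis over normal gland and for metastasis over carcinoma; red is fibrillar, blue type IV and grey type VI, and a ring marks an adjusted p under 0.05. The ring stands at Col3a1 in metastasis over normal gland (log2 -4.61), and the blue points lie near 0 in that panel.

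Over all 5 stages, Col1a1 (adjusted p = 0.0300) and Col3a1 (adjusted p = 0.0159) differed in the edgeR test for any difference, which 3.58% of all genes passed. Col6a2 and Col5a2 came next at 0.0519 and 0.0887, whereas Col4a1 and Col4a2 had 0.974 and 0.426. Both calls were lost without normal 18, with adjusted p = 0.0514 for Col1a1 and 0.0608 for Col3a1, and that of Col1a1 also without the 3 libraries of fewest detected genes (0.0599). Col6a2 passed with DESeq2's scaling (0.0315), without the low-count filter (0.0192), with the top gene ID left out (0.0438) and in 8 fits without 1 library, Col5a2 passed without the filter (0.0439), and Col1a2 passed without adenoma 36 (0.0387). DESeq2's likelihood ratio test called Col1a1, Col3a1, Col5a2 (0.0208) and Col6a2 (0.00754) and 338 genes in all, against 712 with edgeR. Because regions share animals in a way the labels do not give, these p-values may be too small or too large.

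Among the lesions, no member passed. Between metastasis and carcinoma (0.0151% of all genes passed), 8 of 10 members were lower in metastasis beside 50.4% of all genes. Col1a1 averaged 20.5 ± 19.2 CPM in metastasis and 136 ± 209 CPM in carcinoma (SD, n = 7 and 9), a log2 of -2.72 (SE 0.85, edgeR adjusted p = 0.223). Col6a2 had log2 -4.44 (SE 1.35, adjusted p = 0.210), and DESeq2 called both, among 186 genes. Without carcinoma 55, Col1a1, Col3a1 and Col6a2 had log2 -1.76, -0.97 and -3.65, against -2.72, -2.08 and -4.44 with it. Col4a2 went the other way, with 75.0 ± 53.1 CPM in metastasis and 31.8 ± 22.5 CPM in carcinoma, a log2 of 1.23 (SE 0.67, edgeR adjusted p = 0.533). Only the metastases came from the lung, so stage and organ cannot be told apart here. Between carcinoma and adenoma (0% of all genes passed with edgeR, 2502 at unadjusted p under 0.05, and 269 with DESeq2), 8 of 10 members were higher in carcinoma and 2 were lower, beside 49.2% of all genes below 0. Col1a1 averaged 136 ± 209 CPM in carcinoma and 41.7 ± 53.4 CPM in adenoma (log2 1.70, SE 0.77, adjusted p = 0.321). Without carcinoma 55, 6 of 10 members were lower in carcinoma than in adenoma and Col3a1 and Col1a2 had log2 -0.40 and -0.15. Between adenoma and hyperplasia (0% with edgeR, 2947 at unadjusted p under 0.05, and 609 with DESeq2), 9 of 10 members were lower in adenoma, beside 47.2% of all genes, by log2 values down to -2.25 for Col6a1, and Col5a2 was higher at log2 1.41. Without hyperplasia 22, the mean of Col6a1 in hyperplasia was 30.01 CPM, against 105 CPM with it, and its log2 was -0.42. Regions share animals here as well, so these p-values may be too small or too large.

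Per length, the type IV chains took a larger mean share of the members' mRNA in each lesion stage than in normal gland. Each chain's CPM was divided by the length of its longest annotated RefSeq-linked transcript. In normal gland the fibrillar chains took 76.8 ± 8.97% of the summed level per kb, type VI took 14.9 ± 4.01% and type IV took 8.35 ± 5.02% (SD, n = 3). The type IV share averaged 24.7 ± 10.5% for the 5 hyperplasias, 33.9 ± 20.4% for the 8 adenomas, 23.3 ± 14.9% for the 9 carcinomas and 46.3 ± 26.6% for the 7 metastases. Among the metastases it ran from 10.7% in metastasis 57 to 89.2% in metastasis 27, and the normal libraries lay between 4.95 and 14.1%, so the groups overlapped through metastasis 57. The other lesion stages also reached into or below the normal range, with lowest shares of 10.3% (hyperplasia 44), 6.06% (adenoma 47) and 4.00% (carcinoma 55). From normal gland to metastasis, the type IV sum averaged 22.8, 25.9, 14.1, 11.5 and 19.0 CPM per kb. The fibrillar sum averaged 289, 52.9, 30.5, 74.9 and 17.1 CPM per kb. By mean CPM per kb, Col1a2 was first in normal gland, hyperplasia, adenoma and carcinoma, and Col4a2 was first in metastasis at 11.6 CPM per kb, ahead of Col1a2 at 8.23 and Col4a1 at 7.34. In normal gland Col1a2, Col1a1 and Col3a1 stood at 121, 81.9 and 70.9 CPM per kb, and Col4a2 and Col4a1 at 12.9 and 9.95. Neighbours in these orders differed by less than the larger of their SDs over libraries, in 9 of 9 pairs at each stage. The order depended on the length used. Per kb of all annotated exons, an alternative added after the data were seen, Col1a1 was first in normal gland (73.96, ahead of Col1a2 at 52.2) and in carcinoma, Col6a1 in hyperplasia and Col4a2 in adenoma and metastasis. The mean type IV share was then 11.4, 30.2, 40.1, 27.9 and 52.7% from normal gland to metastasis. The summed level of all 10 members was 249.5 ± 66.7 CPM in metastasis, the smallest spread of any stage, and 2039.8 ± 1355 CPM in normal gland. These shares were not tested, and in metastasis stage and organ cannot be told apart.

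**Figure D3:**
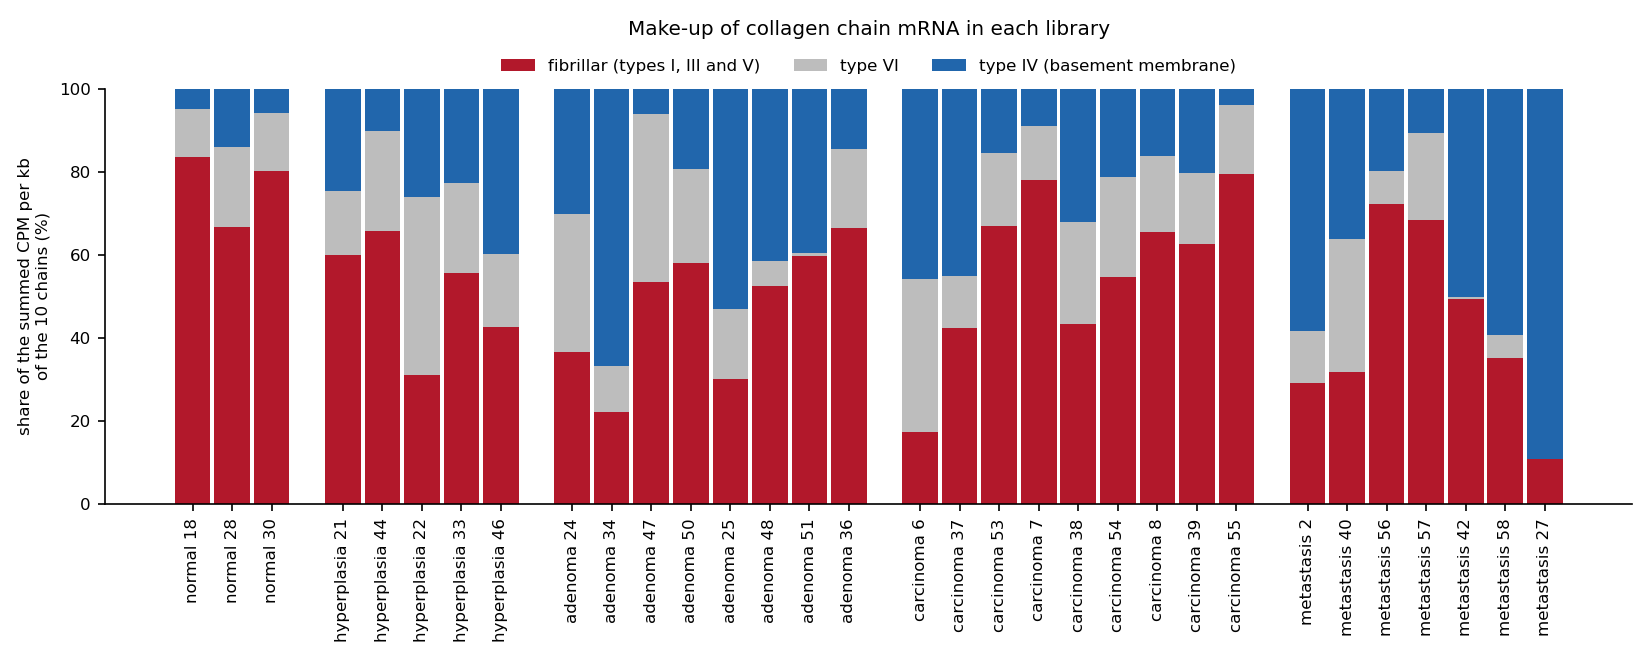
Share of the summed CPM per kb of the 10 chains taken by the fibrillar, type VI and type IV chains (%, stacked bars), for each library, with stages from left to right. Type IV takes up to 89.2% in metastasis 27, against 4.95 to 14.1% in normal gland, and its lowest share, 4.0006%, is in carcinoma 55.

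Position within a lesion was examined in the 12 core and 7 border regions of hyperplasia, adenoma and carcinoma, with stage as a term. No member passed (0% of 12981 genes with edgeR, 401 at unadjusted p under 0.05 and 14 with DESeq2). Col3a1 averaged 26.6 ± 20.8 CPM in the core and 112 ± 121 CPM at the border (SD, n = 12 and 7), a log2 of -2.23 (SE 0.59, unadjusted p = 0.000861, adjusted p = 0.9996 by edgeR). Col1a2 averaged 64.2 ± 92.7 CPM in the core and 308 ± 393 CPM at the border, a log2 of -2.89 (SE 0.86, unadjusted p = 0.00237 by edgeR). Col1a1 and Col6a3 had log2 -1.95 and -1.56. Col1a1, Col1a2, Col3a1 and Col6a3 had an unadjusted p under 0.05 and were lower in the core, a share of the members read against 1.26% of all genes. In all, 9 of 10 members were lower in the core, beside 49.7% of all genes. The type IV pair had log2 0.22 (SE 0.75) for Col4a1 and -0.62 (SE 0.62) for Col4a2. Over the 19 fits without 1 library, the log2 of Col3a1 ran from -2.45 to -1.54, that of Col1a2 from -3.28 to -2.06, that of Col1a1 from -2.32 to -1.33 and that of Col6a3 from -2.06 to -0.74, each nearest to 0 without carcinoma 55. Core and border regions may come from the same animals, so these p-values may be too small or too large.

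Within carcinoma, all 10 members were lower in the 6 core regions than in the 3 border regions, beside 41.6% of all genes, and none passed (0%, 1276 at unadjusted p under 0.05 with edgeR, and 314 with DESeq2). Col3a1 had 1.34, 13.2, 15.5, 16.8, 42.9 and 65.9 CPM in the carcinoma core, against 28.2, 69.9 and 362 CPM at the border. The groups overlapped, and the top border value was carcinoma 55. Its log2 was -2.56 (SE 0.81, adjusted p = 0.781), and -0.91 without carcinoma 55. Col1a1 and Col1a2 had log2 -2.11 and -2.81, and -0.40 and -0.58 without carcinoma 55, a library that also held the highest level of 9 of 10 members in carcinoma. Within adenoma, 9 of 10 members were lower in the 3 core regions than in the 3 border regions, beside 44.5% of all genes (0% passed, 2143 at unadjusted p under 0.05 with edgeR, and 1133 with DESeq2). Col1a2 had 0, 13.1 and 30.1 CPM in the adenoma core, against 32.1, 42.2 and 464 CPM at the border, the 1 member without overlap there (2.35% of all genes, lower), with log2 -3.62 (SE 1.34, adjusted p = 0.514). Without adenoma 36, 4 of 10 members were lower in the core, Col1a2 had log2 -1.43 and Col1a1 had 0.79. No member passed the edgeR test of whether the core-to-border difference itself differed between carcinoma and adenoma, where the smallest unadjusted p was 0.439. The share of all genes that passed this test is not given here. The members had log2 from -1.35 to 0.81 with SEs of 1.29 to 2.79, too wide to decide whether the difference was alike.

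In the lung, the 4 border regions were set against the 3 centre regions of metastases. No member passed (0% of 22676 genes with edgeR, 1975 at unadjusted p under 0.05 and 740 with DESeq2). Col4a2 had 11.9, 25.7, 45.1 and 80.7 CPM at the lung border, against 85.6, 110 and 166 CPM in the lung centre. It was the 1 member without overlap, lower at the border, beside 1.31% of all genes, with log2 -1.56 (SE 0.99, adjusted p = 0.599). Col1a1 had 2.004, 32.95, 35.1 and 50.01 CPM at the lung border, against 1.86, 3.51 and 18.3 CPM in the lung centre, and the groups overlapped (log2 1.91, SE 1.06, adjusted p = 0.563). Its log2 ran from 1.44 to 3.50 in fits without 1 library, the highest without metastasis 2. In all, 4 of 10 members were lower at the lung border, beside 36.8% of all genes. Regions share animals and the p-values may be too small or too large in this comparison too.

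**Figure D4:**
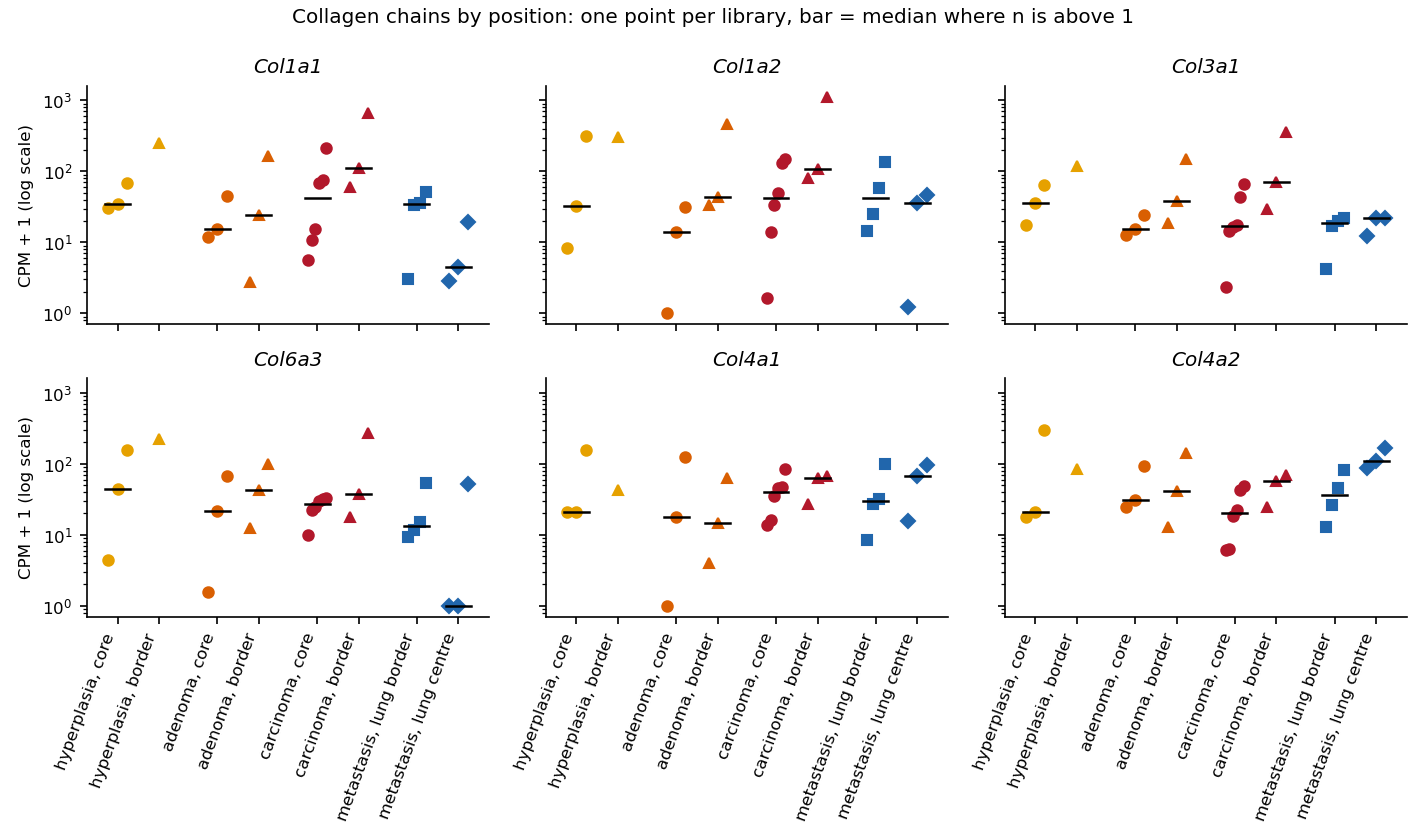
Level of 6 chains (CPM + 1, log axis) by position: core left of border in hyperplasia, adenoma and carcinoma, and lung border left of lung centre in metastasis, with 1 point per library and the median as a bar. The highest border points of adenoma and carcinoma are adenoma 36 and carcinoma 55, for example 362 CPM of Col3a1 in carcinoma 55.

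The chains were compared with each other over the 32 libraries. Spearman's rho of log2(CPM + 1) was 0.84 between Col1a1 and Col1a2, the chains of one molecule, and 0.60 between Col4a1 and Col4a2. The highest of the 45 pairs was Col1a1 with Col6a2 at 0.88, followed by Col3a1 with Col6a1 at 0.85. The median rho was 0.53 among the fibrillar chains, 0.56 between fibrillar and type VI chains and 0.31 between fibrillar and type IV chains. All values come from the same libraries, with their shared depth, stage and animals, and are descriptions without a p. Per kb of transcript, Col1a1 lay above Col1a2 in 11 of 32 libraries, and per kb of all annotated exons in 24. Per kb of transcript, Col1a1 made up 38.7 to 46.5% of the type I pair in the 3 normal libraries. It made up 16.1 to 80.8% in hyperplasia, 4.74 to 100% in adenoma, 28.5 to 86.0% in carcinoma and 6.52 to 88.3% in metastasis. The adenoma extremes were adenoma 48, with 16 counts of Col1a1 and 290 of Col1a2, and adenoma 51, with 38 and 0. Col4a1 made up 30.9 to 59.5% of the type IV pair in normal gland, 32.8 to 53.1% in hyperplasia and 0 to 99.1% in adenoma. Its share was 36.9 to 86.6% in carcinoma and 11.5 to 54.5% in metastasis, with a median of 48.9% over all 32 libraries. Here the adenoma extremes were adenoma 51, with 0 counts of Col4a1 and 82 of Col4a2, and adenoma 50, with 585 and 5. For the type V pair the share of Col5a1 had a median of 22.3%, and Col6a1 took a median of 67.6% of its sum with Col6a2.

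The genes most like the mean of the members over the 32 libraries, among 12479 genes with a mean of at least 5 CPM, were Col8a2 (rho 0.77), Lum (0.76), Sparc (0.76), Mfap5 (0.75), C1qc (0.75), Bgn (0.74), Dcn (0.71), Igfbp7 (0.71), Serpinf1 (0.69) and Postn (0.69). Lum, Dcn and Bgn encode small proteoglycans that bind collagen fibrils, Sparc a collagen-binding matrix protein, and C1qc a complement subunit made by macrophages. Member by member, the 2 most like genes were other members for Col1a1, Col1a2, Col3a1 and Col6a1. Col4a1 was most like Kars and Dtx4, Col4a2 was most like Eif4enif1 and Lgals9, Col5a1 was most like Rccd1 and Wnt5b, and Col5a2 was most like Mfap4 and Emp3. For Col6a2 and Col6a3 the lists were Col1a1 with Serpinf1 and Serpinf1 with Gm14325.

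The summed fibroblast markers had a pattern over the 32 libraries like that of the fibrillar chains, but not between lung border and lung centre. The 15 fibroblast markers summed to 507 to 1290 CPM in normal gland. Hyperplasia held 82.1 to 693, adenoma 14.6 to 773, carcinoma 55.2 to 1043 and metastasis 36.9 to 156 CPM of them. In metastasis 14 of 14 tested fibroblast markers were lower than in normal gland (median log2 -3.30), beside 47.2% of all genes, and none passed. Dpt had no count in any hyperplasia library and Fbln1 none in any adenoma library. Over the 32 libraries the summed fibrillar chains had rho 0.75 with the fibroblast sum and 0.011 with the sum of 12 endothelial markers, the type VI chains had 0.70 and -0.060, and the type IV pair had 0.63 and 0.31. Endothelial markers summed to 92.3 to 147 CPM in normal gland. Hyperplasia held 36.01 to 122, adenoma 4.24 to 112, carcinoma 38.8 to 68.2 and metastasis 47.6 to 338 CPM of them. Carcinoma 55, adenoma 36, hyperplasia 22 and hyperplasia 44 held 1043, 773, 693 and 487 CPM of fibroblast markers, the highest sums outside normal gland. The fibroblast sum was 55.2 to 386 CPM in the carcinoma core and 80.5 to 1043 CPM at its border, and 14.6 to 212 CPM in the adenoma core and 35.1 to 773 CPM at its border. In metastasis the fibroblast sum averaged 76.8 CPM at the lung border and 120 CPM in the lung centre, while the fibrillar chains averaged 117 and 74.4 CPM in summed level. The part of these markers in the collagen results was not tested.

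**Figure D5:**
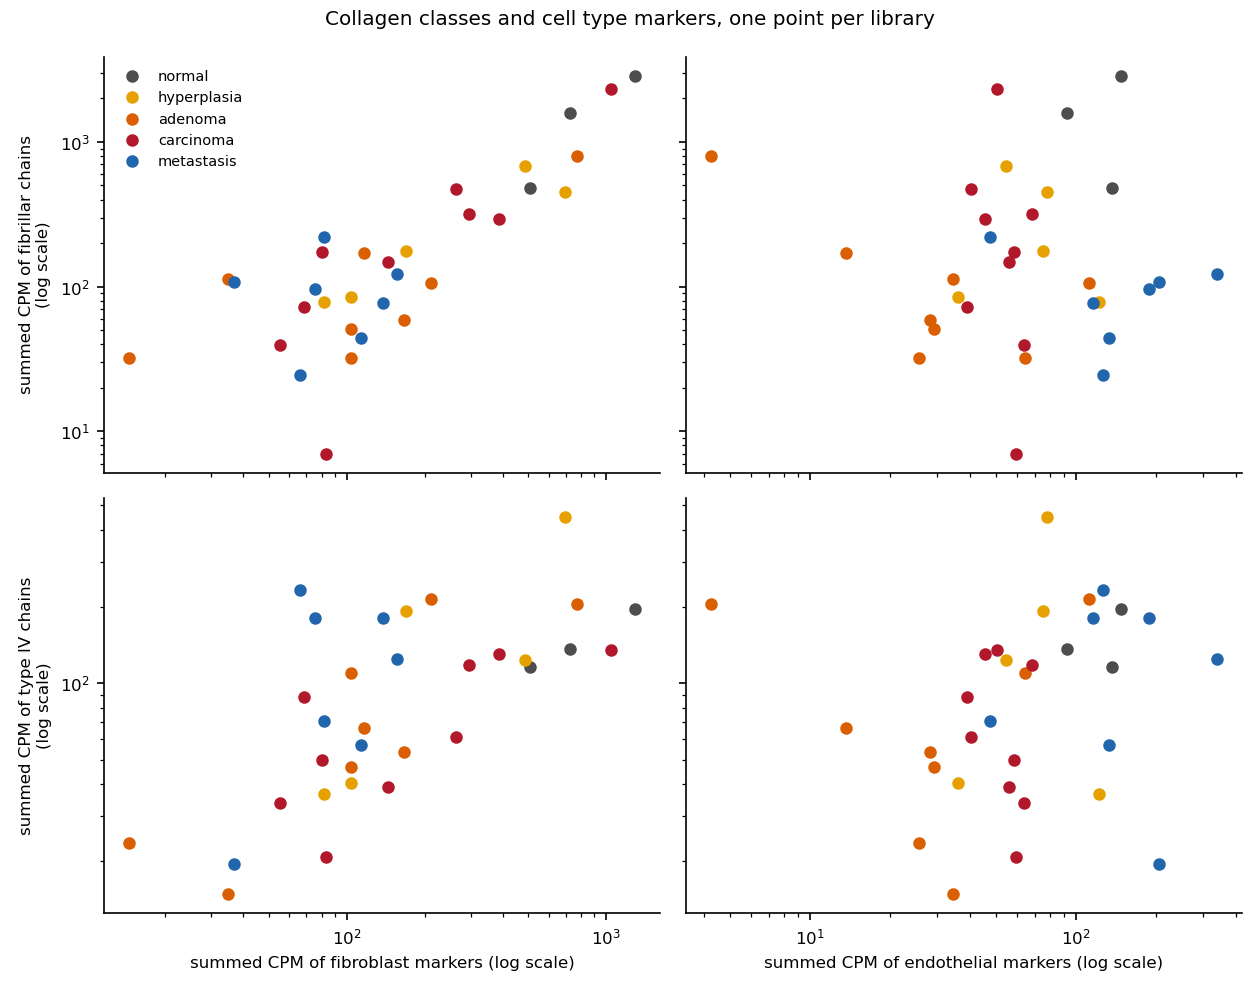
Summed CPM of the fibrillar chains (top) and of the type IV pair (bottom) against the summed CPM of fibroblast (left) and endothelial (right) markers, on log axes, with 1 point per library coloured by stage. The fibrillar sum had rho 0.75 with the fibroblast sum and 0.011 with the endothelial sum, and the type IV sum had 0.625 and 0.31.

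The remaining cell type lists had the following median sums from normal gland through hyperplasia, adenoma and carcinoma to metastasis. Macrophage markers had medians of 362, 249, 129, 188 and 98.6 CPM, and normal 18 alone held 2570 CPM of them. Adipocyte markers had medians of 450.2, 42.4, 34.004, 20.9 and 24.1 CPM, with 379.9 CPM in metastasis 42. Pericyte and smooth muscle markers had medians of 157, 75.2, 89.2, 86.4 and 116 CPM, with 1534 CPM in adenoma 51, and basal and myoepithelial markers 224, 136, 60.02, 47.4 and 162 CPM. Over all 5 stages, 3.58% of all genes passed with edgeR. The cell type markers that passed were Postn of the fibroblast list (edgeR adjusted p = 0.0480) and Adipoq, Plin4, Lep, Retn, Cfd and Fabp4 of the adipocyte list. Sftpc, Sftpa1, Sftpb, Sftpd, Ager and Scgb1a1 of the lung epithelium list passed as well. Cfd and Fabp4 fell in metastasis against normal gland, with edgeR adjusted p of 0.00624 and 0.0376, and Cfd also fell in adenoma (0.000955) and carcinoma (0.00454). The surfactant genes Sftpc, Sftpa1 and Sftpb rose in metastasis against carcinoma, with adjusted p of 3.52e-14, 0.000203 and 7.12e-05. The adipocyte markers Adipoq, Plin1, Cidec and Lep had no count in any metastasis. The summed fibrillar chains had rho 0.54 with the macrophage sum, 0.32 with the adipocyte sum, 0.36 with the basal sum, 0.050 with the pericyte sum, 0.012 with the luminal sum and -0.038 with the lung epithelium sum. Their part in the collagen results was not tested either.

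None of the 109 tested of 110 listed genes in 6 lists passed in any of the 7 stage comparisons with edgeR. The counts of genes lower in metastasis stand beside 47.2% of all genes below normal gland there. Of 14 fibril regulators, 11 were lower in metastasis than in normal gland (median log2 -2.56). In the edgeR test over all stages, which 3.58% of all genes passed, only Fmod of the 6 lists passed (adjusted p = 0.0343). Fmod, a small proteoglycan of fibrils, had 2.23 CPM on average and no count in 23 libraries. From normal gland through each stage to metastasis, Sparc averaged 593, 208, 90.4, 174 and 155 CPM, and Bgn 326, 47.3, 30.03, 85.5 and 53.4 CPM. Thbs1, a matricellular protein, averaged 90.4 CPM in metastasis and 71.7 in normal gland. Of 20 genes of collagen folding and modification, 13 were lower in metastasis than in normal gland (median log2 -0.56), with the chaperones P4hb, Hsp90b1 and Ppib at 769, 604 and 258 CPM in metastasis and 639, 348 and 136 CPM in normal gland. Serpinh1, the collagen-specific chaperone, averaged 55.99 CPM in metastasis and 128 CPM in normal gland, and was named after its values were seen. Of 15 processing and cross-linking genes, 10 were lower in metastasis (median log2 -1.004), and Tgm2, Loxl3 and Pxdn averaged 82.5, 80.6 and 55.6 CPM there and 65.0, 52.7 and 51.6 CPM in normal gland. Of 11 tested receptors and uptake genes, 6 were lower in metastasis (median log2 -0.38), with Itgb1, Cd44 and Adgrg1 at 163, 75.8 and 67.9 CPM there and 159, 60.5 and 27.8 CPM in normal gland. Of 15 basement membrane partners, 12 were lower in metastasis (median log2 -0.37), and Agrn, Lama5 and Lama4 averaged 115, 45.7 and 33.4 CPM there and 85.6, 35.1 and 52.4 CPM in normal gland. Of 34 other collagen chains, 22 were lower in metastasis (median log2 -0.76), and Col9a1, Col16a1 and Col4a6 averaged 131, 105 and 63.4 CPM there and 68.7, 189 and 34.6 CPM in normal gland.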

How the data were processed

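The authors deposited unnormalized read counts for 24454 NCBI gene IDs in 32 libraries. STAR and mm10 are named, per the submitters' processing notes. The labels name QuasR beside the counts. The annotation and strand setting of the counting are not stated there, and the labels name no molecular identifiers. Of the IDs, 24374 matched RefSeq (GRCm38.p6) and 80 did not. No 2 libraries were alike within sampling noise.

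Counts were filtered with filterByExpr (19907 genes by stage, 22676 by stage and position, 12981 for core against border in the primary lesions), TMM scaled and fitted with the edgeR 4.0.16 quasi-likelihood test over all libraries (R 4.3.3), with both directions tested and a threshold of 0.05 after Benjamini-Hochberg adjustment, and checked on simulated data. The fit for primary core against border used their 19 libraries. DESeq2 1.42.0 was an alternative, with scaling, filter, covariate, samples and each library left out as others. SE is the log2 fold change divided by the square root of F. Lengths are from GENCODE vM21 transcripts linked to RefSeq. The members, the 8 cell type lists and the 6 pathway lists were chosen with earlier results of these data known. Named by rule were all members, pathway list genes that passed, the 3 of highest mean CPM of each pathway list, the 10 genes most like the member mean, and the 2 most like each member (rho over log2 of CPM + 1). Cell type markers were named after their values were seen.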

Additional observations from a re-analysis of the deposited data

Results flagged for a closer look

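Of 60 member and group combinations tested for a single library far from the rest, 17 had such a library, each at the high end. Groups of 3 or fewer libraries could not be tested, among them normal gland and the border regions of adenoma and carcinoma. For normally distributed values chance gives about 1 in 20 groups, but CPM values are skewed and the combinations share libraries, so the rate here was not tested. Carcinoma 55, a border region, was the highest of 9 carcinoma libraries and stood apart for 8 members, with 667 CPM of Col1a1, 1123 CPM of Col1a2, 362 CPM of Col3a1, 48.1 CPM of Col5a1, 103 CPM of Col5a2, 164 CPM of Col6a1, 85.4 CPM of Col6a2 and 268 CPM of Col6a3. Its type IV chains did not stand apart. Adenoma 36, also a border region, stood apart for 4 members among 8 adenomas, with 165 CPM of Col1a1, 464 CPM of Col1a2, 23.7 CPM of Col5a2 and 49.997 CPM of Col6a2.

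Hyperplasia 44, at the tumour border, stood apart with 251 CPM of Col1a1, and hyperplasia 22, in the core and among the 3 libraries of fewest detected genes, with 403 CPM of Col6a1. Metastasis 42 stood apart with 47.3 CPM of Col5a1 and metastasis 57, among the lung border regions, with 52.8 CPM of Col6a3. Among the carcinoma core regions, carcinoma 7 stood apart with 215 CPM of Col1a1.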

How the results depend on the processing

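The normal group has 3 libraries, and normal 18 raises the normal mean of every member except Col5a1. No member whose sign turned had passed the test in that comparison, and the cause of each turn was not tested. No paired analysis was possible because the title numbers are unique to a library and no number is shared between groups. Counts of genes passing moved with DESeq2 to 483 (hyperplasia over normal), 412 (adenoma over normal), 177 (carcinoma over normal), 264 (metastasis over normal), 609 (adenoma over hyperplasia), 269 (carcinoma over adenoma), 186 (metastasis over carcinoma), 338 (any stage), 314 (carcinoma core over border), 1133 (adenoma core over border), 740 (lung border over centre) and 14 (primary core over border). With only the groups compared they were 1, 6, 7 and 13 for hyperplasia, adenoma, carcinoma and metastasis over normal. With DESeq2's scaling they were 6 and 2 for adenoma and carcinoma over normal, and without the low-count filter 2 for carcinoma over normal, 5 for metastasis over carcinoma, 3717 for any stage, 2 for adenoma core over border, 1 for lung border over centre and 8 for primary core over border. Without the 3 libraries of fewest detected genes they were 2, 2 and 3 for adenoma, carcinoma and metastasis over normal and 126 for any stage. With detected genes as a covariate they were 4 and 0 for adenoma and carcinoma over normal and 168 for carcinoma over adenoma. Leaving out each library gave 0 to 1 for adenoma over normal, carcinoma over normal, carcinoma over adenoma, carcinoma core over border and adenoma core over border, 1 to 4 for metastasis over normal and 479 to 1614 for any stage. The log2 of hyperplasia over normal turned for Col4a2 to -0.0736 with DESeq2's scaling, -0.0737 with DESeq2, -0.66 without the 3 libraries and -0.68 with the covariate. It turned for Col6a1 to -1.55 without the 3 libraries and -1.74 with the covariate. For Col6a3 it turned to -0.23 with DESeq2's scaling and with DESeq2, -0.0116 without the filter, -0.34 without the 3 libraries, -0.0142 without the gene ID of highest share, -0.45 with the covariate and -0.0301 with only the groups compared. Without the 3 libraries Col4a1 and Col5a1 turned to 0.43 and 0.0333 in adenoma over hyperplasia, and Col5a1 and Col6a3 to 4.41 and -0.23 in lung border over centre. With the covariate, Col4a2 turned to 0.0036 in carcinoma over adenoma. The log2 values of the members that changed sign in some fit without 1 library spanned the following ranges. For hyperplasia over normal, they were Col4a1 -0.89 to 0.16, Col4a2 -0.66 to 0.68, Col6a1 -1.55 to 0.71, Col6a3 -0.66 to 0.61. For metastasis over normal, they were Col4a2 -0.47 to 0.18. For adenoma over hyperplasia, they were Col4a1 -0.84 to 0.22, Col5a1 -0.78 to 0.46, Col6a2 -1.36 to 0.61. For carcinoma over adenoma, they were Col1a2 -0.15 to 2.99, Col3a1 -0.40 to 1.29, Col4a1 -0.30 to 0.30, Col6a1 -0.18 to 1.38, Col6a3 -0.66 to 0.68. For metastasis over carcinoma, they were Col4a1 -0.10 to 0.36, Col5a1 -2.61 to 0.47. For carcinoma core over border, they were Col5a2 -2.25 to 0.65. For adenoma core over border, they were Col1a1 -2.31 to 0.79, Col4a1 -1.63 to 2.43, Col4a2 -1.28 to 0.85, Col5a1 -2.84 to 6.22, Col5a2 -1.03 to 0.38, Col6a2 -2.52 to 3.89, Col6a3 -2.21 to 0.0411. For lung border over lung centre, they were Col3a1 -0.48 to 0.0749, Col4a1 -1.43 to 0.0061, Col5a1 -3.30 to 4.45, Col6a3 -0.63 to 10.71. For primary core over border, they were Col4a1 -0.55 to 0.51, Col5a2 -1.23 to 0.24. The lung values of Col5a1 and Col6a3 without 1 centre library rest on groups at or near 0 and are no bounds. The same holds for the highest adenoma core over border values of Col5a1 (6.22) and Col6a2 (3.89). At that border 2 of 3 libraries had no count of Col5a1, and the median of Col6a2 was 1.02 CPM.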
